A study of Mus musculus with 10 samples.

Results

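Of the 74751 genomic regions listed for H3K9lc, the lactyl mark on lysine 9 of histone H3, in TGF-β-treated and HK1-depleted mouse cardiac fibroblasts, 21194 (28.4%) lay in gene deserts. A region was taken as a desert region when the authors' annotation placed it in distal intergenic sequence, when its assigned start site was at least 100 kb away, and when that gene was not an olfactory (Olfr) or vomeronasal (Vmn) receptor. The regions covered 9.81 of 34.6 Mb and had a median width of 363 bp, with a range of 192 to 2951 bp. No measured value entered this choice.

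The data are CUT&Tag, which sequences DNA cut by a transposase that an antibody holds at its target, from primary fibroblasts of the mouse heart. The TGF library came from cells given TGF-β, a cytokine that activates fibroblasts (5 ng/ml for 24 h in the study's methods). The siHK1 library came from cells that received siRNA against hexokinase 1 before TGF-β. The NC library is titled a control and was read as coming from cells without TGF-β. The paper does not state whether the TGF and NC cells of these libraries received a control siRNA. Libraries for c-JUN, SMAD3 and NFATC2, which are transcription factors, were made under the TGF and siHK1 conditions. There was 1 library per condition and antibody, so no difference below has a replicate error or a test, and each compares libraries rather than conditions. The siHK1 library is titled SI, and NC is titled without an antibody; both were identified by the tables their descriptions point to. The labels give neither strain nor the number of mice, the fibroblasts were not sorted by a marker named there, and no RNA or protein was measured in these libraries, so neither the fibroblast label nor the knockdown could be checked. In CUT&Tag on bulk cells, a mark carried by fewer cells and a weaker mark in each cell cannot be told apart.

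Gene deserts are long stretches of the genome without protein-coding genes. Some hold distant enhancers of developmental genes, and much of their sequence derives from transposable elements and simple repeats. Lactylation adds a lactyl group, which cells derive from lactate, to histone lysines. Hexokinase catalyses the first step of glycolysis, the pathway whose product pyruvate is reduced to lactate.

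The label was checked against a second gene set, GENCODE vM21 on GRCm38, the build of all coordinates given here. Of the desert regions, 20240 (95.5%) lay at least 100 kb from every protein-coding start site, and 17217 (81.2%) lay in a gap of at least 500 kb between coding genes, with a median gap of 1.19 Mb. Only 5326 (25.1%) lay at least 100 kb from every transcript start in that set, noncoding transcripts included, and the median distance to such a start was 46.0 kb. The regions were therefore far from coding genes, but most were not far from every annotated transcript. The median distance to the start site the authors assigned was 281 kb and the largest was 4337 kb. The members nearest the limit were chr16:58308117-58308420, 100023 bp from Dcbld2, with 2 TGF reads and 7 siHK1 reads, and chr7:69596147-69596374, 100030 bp from 4930402F11Rik, with 8 reads in each library. Just outside were chr2:169532794-169533015, 99998 bp from Tshz2, with 3 TGF reads and 0 siHK1 reads, and chrX:33213165-33213382, 99997 bp from Btbd35f12, with 12 and 10.

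The following sequences show what lay under these regions: the ones with the largest loss and the largest gain in siHK1 among those above the median desert level (the mean of the log2 levels of both libraries), the one farthest from its assigned start site, and the surroundings of a motif under a JUN region. All are RefSeq GRCm38.p6 sequence on the plus strand, whole, the central 300 bases or, for the last one, the 107 bases around the match. The capitals mark the central 32 bases whose copies in the genome were counted. In the last one they mark a match to TGANTCA, a loose AP-1 pattern that takes any base at N.
chr1:8157163-8157383, largest loss: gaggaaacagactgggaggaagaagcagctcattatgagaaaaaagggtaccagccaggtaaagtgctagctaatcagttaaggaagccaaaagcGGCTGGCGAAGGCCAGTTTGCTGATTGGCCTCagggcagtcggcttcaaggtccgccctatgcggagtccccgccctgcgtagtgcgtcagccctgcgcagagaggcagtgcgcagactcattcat
chrX:82532251-82532550, largest gain: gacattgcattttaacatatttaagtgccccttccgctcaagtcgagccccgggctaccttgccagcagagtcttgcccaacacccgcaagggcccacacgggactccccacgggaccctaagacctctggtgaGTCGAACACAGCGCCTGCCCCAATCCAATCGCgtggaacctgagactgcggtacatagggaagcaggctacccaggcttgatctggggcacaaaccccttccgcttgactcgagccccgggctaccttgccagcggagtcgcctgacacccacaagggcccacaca
chrY:48443073-48443372, farthest from its assigned start site: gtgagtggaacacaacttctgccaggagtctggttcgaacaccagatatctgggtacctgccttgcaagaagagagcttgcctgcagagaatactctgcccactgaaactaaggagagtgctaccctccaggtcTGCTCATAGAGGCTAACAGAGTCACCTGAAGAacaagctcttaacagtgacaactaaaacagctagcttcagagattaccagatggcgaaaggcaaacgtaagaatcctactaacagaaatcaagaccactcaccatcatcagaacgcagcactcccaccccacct
chr3:3011549-3011655, AP-1 match in a region shared with JUN: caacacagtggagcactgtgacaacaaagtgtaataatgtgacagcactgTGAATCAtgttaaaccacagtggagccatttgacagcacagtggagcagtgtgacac
The central 32 bases were found in the genome, both strands counted, 800 times for the largest loss, 2 times for the largest gain (which also holds the recurring sequence A given below, with 5583 copies), 1746 times for the farthest region and 1 time for the region around the AP-1 match. The largest loss was a tie with chr6:131898648-131899268, which is described below and not printed.

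Desert H3K9lc regions were rich in repeated sequence. The median desert region was 86.0% soft-masked, which is how the reference marks repeats, against 63.4% for the other intergenic regions, 56.3% for intronic and 11.4% for promoter regions. Pooled over their bases, the desert regions were 71.3% soft-masked, and all desert bases of the genome, defined by the same distance rule from the start sites in the 5 tables used here, were 46.9% soft-masked. The listed regions thus held more masked sequence than the deserts they lie in. Of the desert regions, 9915 (46.8%) were at least 90% masked and 2266 (10.7%) at most 10% masked. The central 32 bases occurred once in the genome in 9528 desert regions (45.0%), against 53.0% of all listed regions and 73.8% of promoter regions. They occurred over 100 times in 6507 (30.7%), against 22.8% of all listed regions. The listed desert regions also had a higher GC content, 49.7% of their pooled bases (median region 48.4%) against 38.9% over all desert bases.

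**Figure D1:**
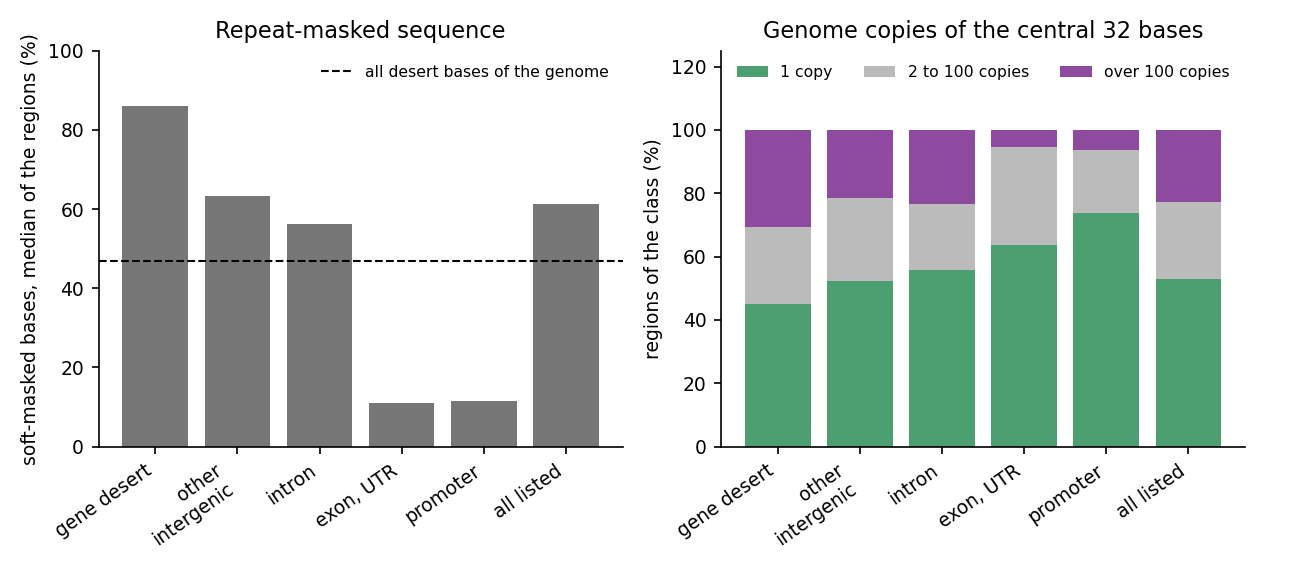
Left, median soft-masked share of the listed H3K9lc regions (%) by class, with the dashed line at the share pooled over all desert bases of the genome (46.9%). Right, share of each class (%) whose central 32 bases occur 1 time, 2 to 100 times or over 100 times in the genome; desert regions have the highest masked share and the largest share over 100 copies.

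Some sequences recurred across many desert regions. The 32-base sequences present in the most desert regions were found by taking the most frequent one, setting its regions aside and repeating. They are printed because each marks a set of regions that share it with other places in the genome, and capitals mark the whole counted sequence.
sequence A: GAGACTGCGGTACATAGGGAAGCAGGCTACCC
sequence B: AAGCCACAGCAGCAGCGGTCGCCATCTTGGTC
sequence C: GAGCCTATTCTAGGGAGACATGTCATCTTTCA
sequence D: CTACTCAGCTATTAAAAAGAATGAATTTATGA
sequence E: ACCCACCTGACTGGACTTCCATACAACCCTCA
Sequence A was in 780 desert regions and 1651 listed regions and had 5583 copies in the genome. Sequence B was in 589 desert regions, C in 553, D in 456 and E in 442, and a run of CA repeats, ranked between C and D, was in 465. Sequences A to E together marked 2808 desert regions (13.2%). Regions with A held a median of 43 reads in TGF and 23 in siHK1, and regions with E 46 and 27, against 15 and 8 over all desert regions. Regions with D held fewer, 12 and 6. The repeated sequences thus lay under both strong and weak regions.

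The desert regions took a smaller share of reads than of regions. TGF had 561701 of its 2490853 listed reads there (22.6%, 95% exact binomial interval 22.5% to 22.6%), and siHK1 had 306879 of 1419023 (21.6%, interval 21.6% to 21.7%). Such intervals leave out all but counting error, and duplicates made by PCR are not separate molecules. Per kb, desert regions held 57.3 reads in TGF and 31.3 in siHK1, against 72.0 and 41.0 over all listed regions. The desert share of reads was 0.92 percentage points lower in siHK1 than in TGF by these counts. The median region differed less, with 39.9 reads per kb in TGF in deserts and 40.2 over all listed regions. No read was counted in 201 desert regions in TGF and in 416 in siHK1.

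HK1 depletion was compared at each desert region by bringing both libraries to equal totals over all listed regions and adding 0.5 reads before taking the log2 ratio of siHK1 over TGF. The median log2 ratio was -0.17, with quartiles of -0.67 and 0.35, against -0.11 over all listed regions and -0.09 over those outside deserts. At least 2-fold lower in siHK1 were 3305 desert regions (15.6%), where 14.7% of all listed regions were. At least 2-fold higher were 2332 (11.0%), where 12.2% of all listed regions were. Both shares were close to the background, and 58.6% of the called desert regions were lower, where 54.6% of all called regions were. Without any scaling 91.7% were, against 89.9% of all called regions, since siHK1 has fewer reads. Under the other scalings the share ran from 49.8% to 65.0%, and that over all called regions from 46.2% to 60.8%. Scaling moved the median of all listed regions itself, from -0.19 with a line through shared peaks to 0.00 where it was set so, and to -0.89 unscaled. The desert median differed from it by -0.06 to -0.04 on the log2 scale under each of these.

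The calls came mostly from regions with few reads. In the lowest quintile of all listed regions by mean log2 level, 40.5% of the desert regions were called lower and 31.4% higher, with medians of 5 reads in TGF and 2 in siHK1. In the middle quintile the shares were 10.9% and 7.19%, and in the highest quintile 0.488% and 0.244%, that is 20 lower and 10 higher of 4100. The same fall with level was seen over all listed regions, from 37.8% and 35.3% to 0.501% and 0.321%. In the highest quintile the median log2 ratio was -0.07 for desert regions and -0.04 for all listed regions.

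**Figure D2:**
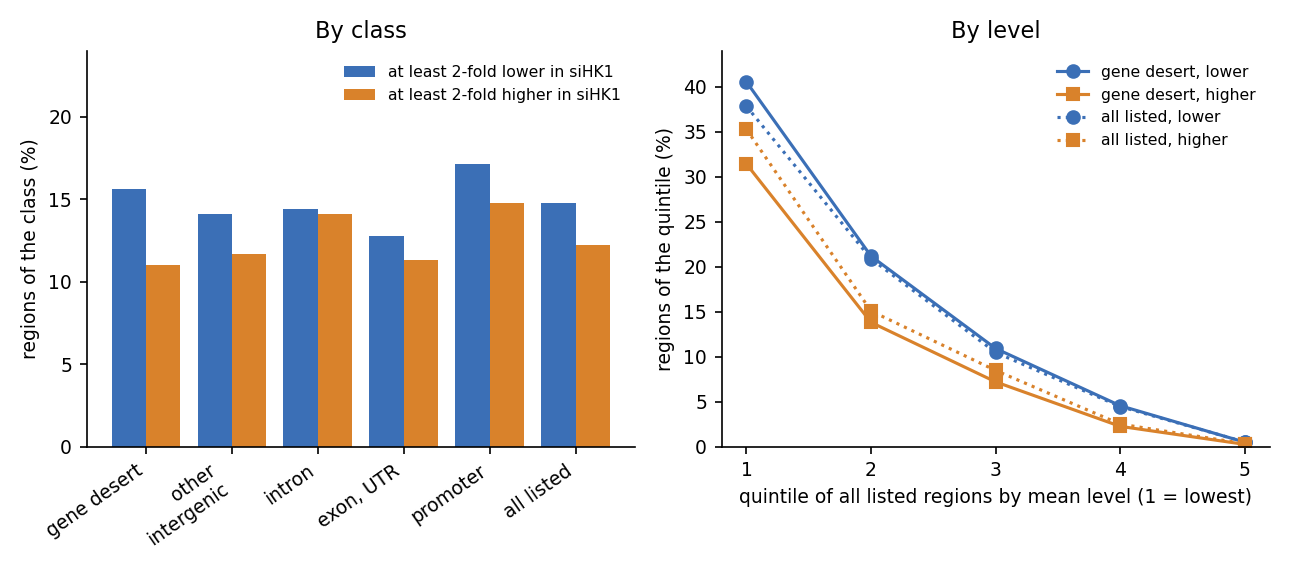
Left, percent of the regions of each class at least 2-fold lower (blue) or higher (orange) in siHK1 than in TGF after equal totals. Right, the same for desert regions (solid) and all listed regions (dotted) by quintile of mean level, falling from 40.5% lower in the lowest quintile of desert regions to 0.488% in the highest.

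Other classes gave similar values. At least 2-fold lower were 14.1% of the other intergenic, 14.4% of intronic, 17.1% of promoter and 12.8% of exon and UTR regions, and at least 2-fold higher were 11.7%, 14.1%, 14.8% and 11.3%. The desert median of -0.17 was below those of the other intergenic (-0.11), intronic (-0.08), promoter (-0.11) and exon and UTR regions (-0.05). With 1 library per condition the size of such a difference between repeated experiments is unknown.

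Within deserts, the median ratio after equal totals was highest in the regions nearest start sites and did not fall further beyond 1 Mb. Regions 100 to 200 kb away (7288) had a median log2 ratio of -0.109, those 200 to 500 kb away (8338) -0.168, those 500 kb to 1 Mb away (4172) -0.185 and those beyond 1 Mb (1396) -0.179. At least 2-fold lower were 13.7%, 15.8%, 17.5% and 18.4% of them, and 11.5%, 11.3%, 9.71% and 10.5% were at least 2-fold higher. Reads per kb in TGF fell from 64.3 in the nearest group to 55.5, 49.8 and 51.6, and the share of regions with over 100 genome copies rose from 27.1% to 36.3%. Among regions whose central 32 bases occur once in the genome, the medians were -0.08, -0.17, -0.21 and -0.28. With the median of all listed regions set to 0 the nearest group stood at 0.00 and the others at -0.04, -0.09 and -0.06. The part of level and copy number in the order by distance was not tested.

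Peaks were called by the authors per library and marked in the table. Of the desert regions, 11925 (56.3%) had a peak in TGF only, 4873 (23.0%) in siHK1 only, 4327 (20.4%) in both and 69 in neither. Over all listed regions the shares were 54.7%, 24.2% and 20.8%. Desert regions with a peak in both libraries were wider and more repeated, with a median width of 581 bp, 96.5% soft-masked bases and medians of 36 reads in TGF and 21 in siHK1, and their median log2 ratio was 0.05. Regions with a TGF peak only held a median of 16 and 6 reads, and those with a siHK1 peak only 6 and 7. The ratio of regions marked in 1 library is fixed in part by the mark and is not a finding.

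The 10 desert regions of highest mean log2 level took 6.23% of the desert reads in TGF and 8.46% in siHK1. The highest of them is not reported here. The next, chr12:3109872-3110107, assigned to Rab10os, held 4502 reads (19076 per kb) in TGF and 3659 (15504 per kb) in siHK1, with a log2 ratio of 0.51 (0.45 to 0.58). It lies 110 kb after the first sequenced base of chromosome 12, on the side of the centromere. It was followed by chr12:74803840-74804580, assigned to Kcnh5 (a potassium channel gene), which held 3488 reads in TGF and 1993 in siHK1, with a log2 ratio of 0.00 (-0.08 to 0.08). These regions thus ran from no difference to a 1.43-fold larger share in siHK1.

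Next came chrX:170880924-170881310 near Asmt, with 2824 TGF reads and 2045 siHK1 reads. The region chr19:61331278-61331563 near Csf2ra held 2253 and 1737 reads, and chr12:97061436-97061847 near 1700019M22Rik held 2044 and 1459. The last of these shares its central 32 bases with mitochondrial DNA. These were followed by chr1:195371721-195371990 near Cr2 with 1972 and 1506 reads, chr13:110743970-110744578 near Gm38397 with 1796 and 1266, chr2:57629489-57629759 near Gpd2 with 1460 and 1073, and chr12:93576971-93577262 near 4930559C10Rik with 1377 and 1081. All 10 log2 ratios were above 0, from 0.00 to 0.51, and stayed so under each scaling but the unscaled counts, where all 10 held fewer reads in siHK1. All 10 overlapped listed regions in the JUN, SMAD3, NFATC2 and NC tables. Of the 10, 7 were at least 90% soft-masked, and in 7 the central 32 bases occurred over 10 times in the genome. They occurred 1823 times for the Csf2ra region, 1795 for Cr2, 1792 for 4930559C10Rik and 137 for Rab10os, but 1 time each for Kcnh5 and Gm38397. Without them the desert regions held 53.7 reads per kb in TGF and 28.6 in siHK1.

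**Figure D3:**
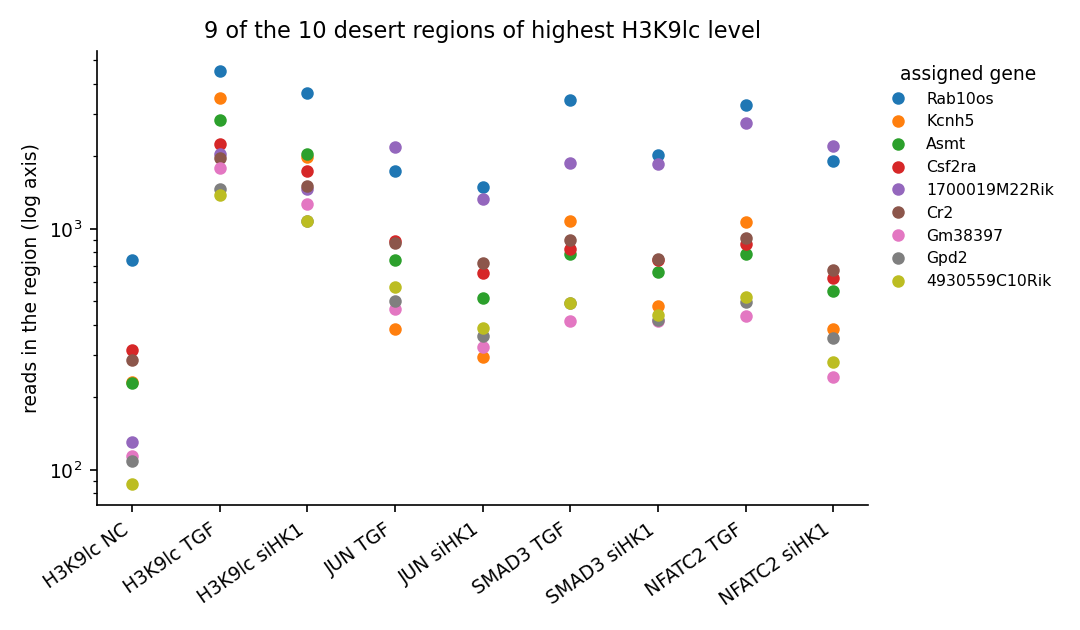
Reads (log axis) of 9 of the 10 desert regions of highest H3K9lc level in the 3 H3K9lc libraries and, where the overlapping region of each factor's table is taken, in the 6 factor libraries; each colour is 1 region, named by its assigned gene. All 9 hold reads in every library; the counts are raw and the libraries differ in total, so heights are not comparable between libraries (the 743 NC reads of the Rab10os region are 0.643% of the listed NC reads, and its 4502 TGF reads 0.195% of those of TGF).

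Among desert regions whose mean of the log2 levels in TGF and siHK1 was above the desert median, the largest losses were at regions with about 30 reads in TGF. This mean leaves out regions with very few reads in 1 library. With a plain mean of the scaled counts, chosen after seeing the data, 17 regions had larger losses, up to a region near Glis3 with 30 and 1 reads (log2 ratio -3.66), and 3 had larger gains than those below, up to a region near Kcnh8 with 5 and 19 reads (2.59). The region chr1:8157163-8157383, assigned to Sntg1 (a syntrophin gene), and chr6:131898648-131899268, assigned to Tas2r114 (a taste receptor gene), each held 30 reads in TGF against 4 in siHK1, a log2 ratio of -1.997 with a counting interval of -4.06 to -0.59. The region chr12:23422926-23423348 near 2410018L13Rik held 43 and 6 reads, with a log2 ratio of -1.96. The regions chr3:17293755-17294217 near Mir124-2hg and chr17:63661230-63661832 near Fbxl17 held 28 and 4 reads each, with a log2 ratio of -1.90, and so did chr14:110244552-110245107 near Slitrk6, which tied with them. All 6 had a peak in TGF only, and 4 of them were at least 88.8% soft-masked. The Slitrk6 region was 45.7% masked. The Fbxl17 region was 8.96% masked and also overlapped a JUN region with 207 TGF reads and 127 siHK1 reads. It overlapped a SMAD3 region with 9 and 18 reads and an NFATC2 region with 8 and 1 as well.

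The largest gains by the same rule were smaller in reads. The region chrX:82532068-82532732 near Dmd (the dystrophin gene) held 6 reads in TGF and 18 in siHK1, a log2 ratio of 2.28 with a counting interval of 1.002 to 4.02. The region chr12:19520946-19521321 near 5730507C01Rik held 9 and 23, and chr12:22426156-22426383 near Gm4425 held 8 and 19. The regions chr8:100380124-100380830 near A330008L17Rik and chr3:56914172-56914743 near Tm4sf1 held 7 and 16 each, with a log2 ratio of 1.91. All 5 had a peak in siHK1 only. These extremes were picked for their ratio from all desert regions that passed this level, so their intervals do not allow for that choice.

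The 3 regions farthest from an assigned start site were all on chromosome Y near Gm20736, from 3970405 to 4336663 bp away. They held 14 reads in TGF and 9 in siHK1, 17 and 12, and 53 and 38, and none was called. They were wholly soft-masked. The farthest, however, lay 8000 bp from a transcript start of GENCODE vM21, so it is far only from the start the authors assigned.

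Regions with the recurring 32-base sequences differed in ratio. Regions with D had a median log2 ratio of -0.33 over the 453 that held none of the earlier sequences, with 110 (24.3%) at least 2-fold lower and 36 (7.95%) higher, where 14.7% and 12.2% of all listed regions were, and the median stayed below that of all listed regions under each scaling. Those with A (780) and B (589) stood at -0.13 and -0.14, with 44 (5.64%) and 42 (7.13%) lower and 8 (1.03%) and 19 (3.23%) higher, all under the shares over all listed regions, and both stood at -0.04 with the median of all listed regions set to 0. Those with C and E stood at -0.03 and 0.02, and their sign changed with the scaling, from -0.10 and -0.05 with a line through shared peaks to 0.07 and 0.11 with the median of all listed regions set to 0. Those with D had fewer reads per region than the others, and those with A and B more than desert regions as a whole. Grouped by level, desert regions of the second and middle quintiles had medians of 9 and 15 TGF reads. Their median log2 ratios were -0.31 and -0.18, with 21.2% and 10.9% lower and 13.8% and 7.19% higher. In the fourth and highest quintiles, with medians of 26 and 53 TGF reads, 4.54% and 0.488% were lower and 2.25% and 0.244% higher. The part of read level in these ratios and calls was not tested.

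Desert regions were spread unevenly over the chromosomes. The X chromosome held most (2463) and had the highest density, 47.0 per Mb of desert, against 30.3 per Mb over the genome. Chromosome 12, with 1543, came next by density (40.4 per Mb), although chromosomes 1 (1916) and 3 (1634) held more regions. Chromosome 19 held 166 (17.2 per Mb). Chromosome Y held 99 regions in 71.6 Mb of desert (1.38 per Mb), and 3.03% of them had central 32 bases found once. By this measure 81.2% of its sequenced bases were desert. Desert bases were measured only from start sites to which the 5 tables assign a region. A chromosome with few listed regions can thus have a larger desert and a lower density. Desert bases made up 26.4% of the sequenced genome, or 24.6% with chromosome Y left out. The median log2 ratio ranged over the chromosomes from -0.21 on chromosome 6 to -0.00 on chromosome Y.

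**Figure D4:**
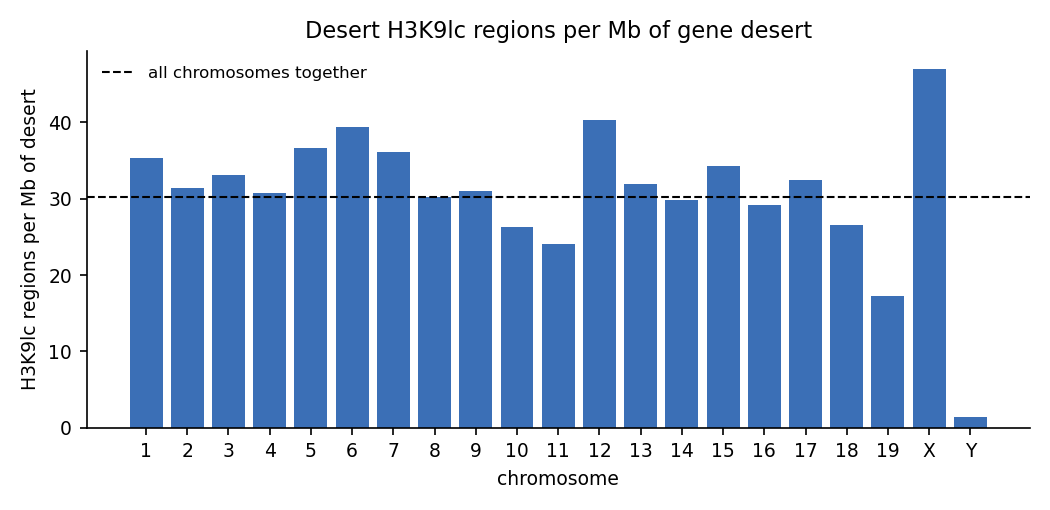
Number of desert H3K9lc regions per Mb of gene desert on each chromosome, with the dashed line at the value over all chromosomes (30.3 per Mb). The X chromosome is highest at 47.0 and chromosome Y lowest at 1.38. Desert size was measured only from start sites with an assigned region, so it depends in part on the listed regions.

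Neighbouring desert regions at most 10 kb apart formed 10975 clusters, of which 6030 were single regions and 599 had at least 5, with 4157 regions in them. The cluster with the most regions was chrX:31120532-31235208 beside Btbd35f10, with 34 regions over 115 kb, 2856 reads in TGF and 1574 in siHK1. Of its 34 regions 3 were called lower and 2 higher, where 14.7% and 12.2% of all listed regions were. Next came chr12:22642610-22753909 beside 2410018L13Rik, with 23 regions, 794 and 413 reads, and chr8:20017919-20117617 beside 6820431F20Rik, with 22 regions, 985 and 539 reads. The latter tied with chrX:33850538-33942435 beside Btbd35f14, which also had 22 regions, with 968 and 443 reads. Only 6, 1, 2 and 1 of the regions in these 4 clusters had central 32 bases found once in the genome, and the others had copies elsewhere.

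The desert regions were assigned to 2138 genes. Those with the most were 5730507C01Rik on chromosome 12 (182 regions, 6028 reads in TGF and 3279 in siHK1), Lrrc4c on chromosome 2 (163 regions, 3047 and 1484), 1700030C10Rik on chromosome 12 (133, 4252 and 2150), Cdh20 on chromosome 1 (121, 2412 and 1297) and Rprl1 on chromosome 6 (115, 2018 and 996). Lrrc4c encodes a synaptic adhesion protein and Cdh20 a cadherin. Median log2 ratios over their regions were -0.17, -0.27, -0.24, -0.18 and -0.32. All 5 medians were below that of all listed regions (-0.11). Those of 5730507C01Rik and Cdh20 were close to the median of all desert regions (-0.17).

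Genes next to deserts were described by 3 lists, to be read beside the desert regions as a whole, of which 15.6% were lower and 11.0% higher with a median of -0.17, and all listed regions, with 14.7%, 12.2% and -0.11. Of 78 developmental transcription factor genes, 39 had desert regions, 228 in all, with 21 (9.21%) at least 2-fold lower and 40 (17.5%) higher and a median log2 ratio of 0.12. Sall1, a zinc finger factor gene, had 22 regions with 268 TGF reads and 163 siHK1 reads, of which 0 were called lower and 7 higher. Tshz3 had 16 regions with 177 and 128 reads, 2 lower and 4 higher, and Zic4 had 15 with 664 and 312 reads, 3 lower and 0 higher. The list's median stayed above that of all listed regions under each scaling, from 0.03 with a line through shared peaks to 0.24 with the median of all listed regions set to 0, and was -0.65 unscaled where all listed regions stood at -0.89. The list's regions were less repeated than desert regions as a whole, with a median of 48.3% soft-masked bases and 64.0% with central 32 bases found once.

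Of 76 neuronal adhesion and synaptic genes, 54 had desert regions, 1626 in all, with 295 (18.1%) lower and 163 (10.0%) higher and a median of -0.25. Cdh7 had 73 regions with 1369 TGF reads and 604 siHK1 reads, 15 lower and 3 higher. Slitrk6 had 93 regions with 1644 and 878 reads, 14 lower and 10 higher, and Ncam2, a neural cell adhesion molecule gene, had 73 with 1479 and 803, 10 lower and 7 higher. Of 62 fibroblast matrix and signalling genes, 21 had desert regions, 104 in all, with 16 (15.4%) lower and 8 (7.69%) higher and a median of -0.25. Cdh11, a mesenchymal cadherin gene, had 23 regions with 623 and 319 reads, 3 lower and 1 higher. Its regions also count in the neuronal list, and the 4 of Tcf21 count in both the developmental and the fibroblast list. Col3a1, a fibrillar collagen gene, had 8 with 209 and 131 reads and none called, and Has2, the hyaluronan synthase gene, had 4 with 266 and 104 reads and none called. The called shares of both lists lay near those of all desert regions. With the median of all listed regions set to 0, both medians were -0.14, with a line through shared peaks they were -0.33 and -0.32, and unscaled both were -1.04. These are descriptions of lists chosen with results of these data known, and assignment to the nearest start site does not show that a region acts on that gene.

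Few desert regions coincided with transcription factor regions. Overlap by at least 1 bp was found with a JUN region at 464 (2.19%, interval 1.997% to 2.40%), with a SMAD3 region at 859 (4.05%, 3.79% to 4.33%) and with an NFATC2 region at 902 (4.26%, 3.99% to 4.54%). The H3K9lc regions outside deserts overlapped JUN, SMAD3 and NFATC2 regions at 7.39%, 7.47% and 7.49%. The desert overlaps were 0.630%, 1.48% and 1.33% of the JUN, SMAD3 and NFATC2 lists. Of the desert H3K9lc regions, 19545 (92.2%) overlapped none of them, where 87.7% of all listed H3K9lc regions did not. By the same rule, 8.36% of JUN regions, 15.1% of SMAD3 regions and 16.3% of NFATC2 regions lay in deserts.

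The letters TGANTCA, a loose pattern for the binding motif of AP-1 factors such as c-JUN, occurred in the central 200 bases of 5.70% of desert regions and 6.26% of all listed regions. The pattern takes any base at N, where the usual site has C or G, and it was read on both strands. The match printed above has A there, so the shares given here include matches that are not the usual site. In the desert regions that overlapped a JUN region the share was 16.6%, and in the JUN-overlapping regions outside deserts 12.2%. The letters CAGAC (SMAD) on either strand occurred in the central 200 bases of 44.4% of desert and 43.2% of all listed regions, and GGAAA (NFAT) in 41.9% and 40.9%. The highest desert region with both a JUN overlap and an AP-1 match was chr3:3010647-3011810 near Hnf4g, printed above in part, where TGF gave 1038 reads and siHK1 589, at a log2 ratio of -0.01. It lies 10.6 kb from the first sequenced base of chromosome 3, and its JUN region held 168 and 82 reads. It also overlapped a SMAD3 region with 265 and 100 reads and an NFATC2 region with 216 and 73, both with more raw TGF reads than JUN. The totals differ, with 4215447 listed TGF reads for JUN, 563562 for SMAD3 and 575706 for NFATC2. The raw counts are therefore not comparable between antibodies. Of the desert regions with sequence E, 77.1% held TGANTCA somewhere. A match is a match of letters and not a bound site.

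The regions listed in all 5 tables were 142 in deserts (0.670%), against 1.94% of all listed regions. They took 10.2% of the desert reads in TGF and 12.7% in siHK1. With these regions taken out of the totals, the median log2 ratio of the remaining desert regions was -0.11, and that of all remaining listed regions -0.04.

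The NC and TGF libraries were compared in a separate table of 65853 regions, with 115572 reads in NC and 2313288 in TGF. By the same rule 18644 of its regions (28.3%) lay in deserts. They held 22561 NC reads (19.5%, interval 19.3% to 19.8%) and 515241 TGF reads (22.3%, 22.2% to 22.3%), or 2.60 and 59.3 per kb, and 8692 (46.6%) had no NC read. After equal totals, 9482 (50.9%) were at least 2-fold higher in TGF where 49.5% of all regions of that table were, and 2887 (15.5%) lower where 16.9% were. Of the higher ones 91.4% had no NC read, so their number rests on the 0.5 reads added, and with these added before scaling the counts were 2637 higher and 4438 lower. Of the lower ones, 71.8% had a higher raw count in TGF than they had in NC. For the 8692 desert regions without an NC read the direction could not be read at this depth. The 9 high regions described above held 87 to 743 NC reads, and there the direction turned with the scaling: their log2 ratios of TGF over NC were -1.72 to -0.34 after equal totals, and 2.60 to 3.98 unscaled.

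At 12814 desert regions (60.5%) both H3K9lc tables gave the same coordinates and the same TGF count, and all of these had a TGF peak. They held 2.27 reads per kb in NC, 59.7 in TGF and 27.8 in siHK1, with medians of 0, 17 and 6 reads. NC had no read in 7231 of them and a peak in 91. These regions were listed through their TGF peak, so TGF had to be high there, and the NC library had far fewer listed reads overall.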

How the data were processed

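CUT&Tag reads were counted by the authors in regions listed for each pair of libraries, and the deposited tables hold these raw counts, a 0 or 1 mark for a peak called in each library (another unit, a yes or no mark) and an annotation of each region. The study's methods name Bowtie2, MACS2 and GRCm39, whereas the submitters' processing notes name BWA 0.7.12 and mm10; all 17995 transcripts of the tables found in GENCODE vM21 (GRCm38) had identical coordinates, so GRCm38.p6 was used for sequence. The authors' normalized values, fold changes, p-values and calls are also in the tables and were not used. The library titled TGF without an antibody was not used, nor were 2 columns of a sample outside the series. Library depth is unknown, and totals refer to listed regions. Reads were not filtered for mapping here, and how reads with several matching places were treated is not given in the sources used here.

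Counts were brought to equal totals over all listed regions of a table, 0.5 was added and the log2 ratio was called at 2-fold, with no test since there was 1 library per group. Named were the 10 regions of highest level (the highest is not reported here), the 5 largest losses (with a sixth that tied) and 5 largest gains above the median desert level (mean of both log2 levels), the 3 farthest regions, 2 on each side of the distance limit, the 5 genes and 3 clusters (with another that tied) with most regions, the highest region with a JUN overlap and an AP-1 match, and 3 gene lists. Members and lists were chosen with earlier results of these data known. Copies of 32-base sequences were counted on both strands of the whole reference, and desert bases on a grid of 100 bases. Intervals are exact (Clopper-Pearson) at 95%; ratio intervals condition on the sum of both counts. The code that computes the ratio was tested on simulated data, which is no test of the differences between these libraries. Python 3.11.15, pandas 2.3.3, NumPy 2.4.6, SciPy 1.17.1 and numba 0.67.0 were used.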

Additional observations from a re-analysis of the deposited data

How the results depend on the processing

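The desert count of 3305 lower and 2332 higher regions and their median of -0.17 rest on 1 library per condition, on low counts and on a scaling that cannot show a change common to all regions. Unscaled, 9774 were lower and 887 higher (median -0.93). Among regions above the median level of all listed regions, 413 were lower and 222 higher (median -0.10), 3.99% and 2.14% of these desert regions. The shares over all listed regions also fell with level, as given above. At 4-fold, 776 desert regions were lower and 615 higher, 3.66% and 2.90% against 3.56% and 3.46% of all listed regions. Regions at least 200 kb away gave 1491 higher (10.7%, against 12.2% of all listed regions) and a median of -0.18. The median was -0.040 with the median of all listed regions set to 0. Alternatives chosen after seeing the data gave medians of -0.23 (a line through regions with peaks in both libraries), -0.12 (0.5 added before scaling) and -0.11 (without regions in all 5 tables), and 1835 lower and 1466 higher among regions whose central 32 bases occur once, where fewer regions were counted but larger shares were called (19.3% and 15.4%, against 17.6% and 16.2% of all such listed regions). A pseudocount of 1, a limit of 50 kb, keeping Olfr and Vmn genes, leaving out chromosome Y and, added later, leaving out the 10 highest regions kept both counts within 1.5 times and the median within its order-statistic interval. For TGF over NC, unscaled counts gave 374 lower and 17451 higher, regions above the median level 2001 lower and 1013 higher, where the lower ones outnumbered the higher ones (median -0.21, against 1.12 over all desert regions of that table), and 0.5 added before scaling 4438 lower and 2637 higher. The medians of desert regions and of all regions of that table were both 4.25 unscaled and both -0.08 with 0.5 added before scaling. The called shares over all its regions under these settings are not given here. The desert share of listed regions (28.4%) was 22.6% weighted by TGF reads, 27.9% among regions with peaks in both libraries and 18.6% at 200 kb. Neighbours up to 25 kb apart gave 7097 clusters, and the AP-1 letters were in 11.96% of whole regions against 5.70% of central 200 bases, which are shorter. Overlaps with factor regions stayed within 1.5 times under both other overlap rules. The authors' normalized values were not run, since their columns name no library. No paired analysis was possible because the groups hold single libraries, so no replicate could be left out either.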
